A study of Mus musculus with 12 samples.

Results

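The 4 genes described here encode the inward rectifier potassium channels ROMK (Kcnj1), Kir4.1 (Kcnj10) and Kir5.1 (Kcnj16), and barttin (Bsnd), the accessory subunit of the ClC-K chloride channels. They were taken by gene symbol from a table of estimated RNA sequencing counts, where they were 4 of 23378 rows. All 4 also passed the filter on low counts, which kept 14180 genes. The libraries came from cells sorted by fluorescence from mouse kidney cortex, and fell into 4 groups.

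Macula densa cells are a small plaque of kidney tubule cells that sense luminal salt, where the thick ascending limb meets its own glomerulus. Macula densa (MD) and control cells (CC) were both sorted from MD-GFP mice, a C57BL/6 line carrying nNOS CreERT2 and the mTmG reporter, so that every group shared these alleles. Cre activity is driven by the neuronal nitric oxide synthase gene, Nos1, and turns membrane tdTomato (red) into membrane GFP (green). Green cells were taken as macula densa, and the cells brightest in tdTomato were taken as controls for the distal tubule and collecting duct. The mice received either control diet or, for 14 days, a low salt diet (TD 90228) with the angiotensin-converting enzyme (ACE) inhibitor enalapril at 150 mg/L in the drinking water. Each diet had 4 libraries of control cells and 2 of macula densa. The labels do not say that each library is a separate animal, so the tests measure the spread between these libraries.

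As background, thick ascending limb and macula densa cells take up salt at the apical side through the sodium, potassium and chloride cotransporter NKCC2, the product of Slc12a1. ROMK is the apical channel that lets the potassium taken up return to the lumen, and it also secretes potassium further along the distal tubule. Kir4.1 and Kir5.1 join into a basolateral channel that sets the membrane potential of distal tubule cells, and barttin is needed for the basolateral ClC-K channels through which chloride leaves the cell. Loss of NKCC2, ROMK or barttin function causes Bartter syndrome, a salt-wasting disorder of the thick ascending limb.

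In these data barttin was higher in macula densa than in control cells. ROMK and Kir5.1 also had fitted values above 0, without passing the test over all libraries, and that of Kir4.1 was below 0. The make-up of the channel set differed too: counted within each library, Kir4.1 was low against each of ROMK, Kir5.1 and barttin in macula densa. The p-values of these ratios were adjusted over the ratios tested and those of levels over all genes, so they cannot be ranked together. How often ratios of other genes separate the populations was not tested. With low salt and enalapril, both ROMK and Kir4.1 fell relative to Kir5.1, in a test over both populations that was added after the values were seen.

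Per the GENCODE M21 annotation of GRCm38, Kcnj1 spans 32372493 to 32399197 on the plus strand of chromosome 9, and Kcnj10 spans 172341210 to 172374085 on the plus strand of chromosome 1. Kcnj16 spans 110968033 to 111027968 on the plus strand of chromosome 11, and Bsnd spans 106483456 to 106492283 on the minus strand of chromosome 4. None of the 4 shares its position with another annotated gene. Kir4.1 and Kir5.1 are partner subunits with unlike expression here, so the sequences upstream of their genes are shown with that of Kcnj1. RefSeq start sites on GRCm38.p6 were available for 3 of the 4 members, in 6 windows, and the 250 bases before a start site are printed 5′ to 3′. Kcnj16 has 4 of the windows, of which the most upstream is given, and the Kcnj1 start site lies inside the gene. Capitals mark matches to the letters GTTAA or TTAAC, the core of the site of the tubule factor HNF1 on either strand. The windows are chr9:32393735-32393984 for Kcnj1, chr1:172340960-172341209 for Kcnj10 and chr11:110967783-110968032 for Kcnj16, all on the plus strand.
Kcnj1: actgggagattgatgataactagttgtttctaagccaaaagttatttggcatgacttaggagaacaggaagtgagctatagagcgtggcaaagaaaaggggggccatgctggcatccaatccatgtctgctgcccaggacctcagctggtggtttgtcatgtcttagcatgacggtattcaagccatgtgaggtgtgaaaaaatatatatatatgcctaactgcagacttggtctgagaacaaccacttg
Kcnj10: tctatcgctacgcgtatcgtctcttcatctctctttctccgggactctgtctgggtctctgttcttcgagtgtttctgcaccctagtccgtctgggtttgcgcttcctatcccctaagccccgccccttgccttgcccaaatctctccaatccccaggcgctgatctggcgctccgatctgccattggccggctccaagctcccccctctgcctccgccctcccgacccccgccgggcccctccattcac
Kcnj16: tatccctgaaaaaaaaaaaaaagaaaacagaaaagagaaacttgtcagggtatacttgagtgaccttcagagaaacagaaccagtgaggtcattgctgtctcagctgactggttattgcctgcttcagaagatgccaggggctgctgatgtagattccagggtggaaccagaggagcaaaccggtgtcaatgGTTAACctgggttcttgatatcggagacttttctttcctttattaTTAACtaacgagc

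The Kcnj16 window held 3 such matches, of which 2 overlap, at 58 to 54, 57 to 53 and 13 to 9 bases before the start site. The 3 other Kcnj16 windows held 1, 0 and 2 matches. Kcnj1 and Kcnj10 held 0 in these windows, and 21.7% of all 32851 RefSeq windows of this length held at least 1. The letters AAGGTCA or TGACCTT, a site for estrogen-related receptors, occurred once in the printed Kcnj16 window and in 4.08% of all windows. The grainyhead letters AACCNGTT or AACNGGTT occurred once in the second Kcnj16 window and in 1.79% of all windows. These matches are descriptions of the sequence. GC content was 44.8% for the Kcnj1 window, 62.0% for Kcnj10 and 42.8% for the printed Kcnj16 window.

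Total counts per library ranged from 4259020 to 14856542, so that 3 counts corresponded to between 0.231 and 0.734 CPM (counts scaled to a common library total). The members held from 11 counts (Bsnd, 1 control-cell library) to 1892 counts (Kcnj1, 1 macula densa library). Nos1 was higher in macula densa by 8.26 on the log2 scale (edgeR adjusted p = 7.87e-09), in the direction the sort predicts. Slc12a1, which overlaps an antisense gene, was higher by 3.28 (adjusted p = 0.000650). The control-cell libraries varied in make-up. Their summed CPM of 10 podocyte markers ran from 62.3 to 1640 and that of 10 endothelial markers from 53.5 to 1761, although the sort was meant for tubule cells. Macula densa libraries held at most 197.5 and 203.4. Control-cell library 4 on control diet stood apart, with the lowest podocyte and endothelial sums and the highest sums of thick ascending limb (1494, 12 markers), distal convoluted and connecting tubule (1124, 10 markers) and collecting duct principal cell markers (1105, 10 markers) among the 8 control-cell libraries. Results that rest on it are given with and without it.

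Barttin, which anchors and opens the ClC-K channels, was the member that passed the test between cell populations. On control diet, Bsnd measured 36.4 and 47.0 CPM in macula densa and 1.20, 4.42, 13.8 and 29.1 CPM in control cells. With low salt and enalapril it measured 31.0 and 22.3 CPM in macula densa and 8.07, 6.37, 3.36 and 8.54 CPM in control cells. The populations did not overlap on either diet, and the highest control-cell value belonged to library 4 on control diet. Averaged over both diets, Bsnd was 3.69-fold higher in macula densa, a log2 fold change of 1.88 ± 0.54 (standard error, SE), with an edgeR adjusted p of 0.0278. Thus 1 of 4 members was called in a comparison where 21.3% of all genes were called, and 7.48% were called as higher. Groups of Bsnd did not overlap within both diets, which held for 13.6% of genes. The call was lost without any 1 of the 4 macula densa libraries, with adjusted p between 0.0570 and 0.0879. With control-cell library 4 of the control diet left out, it was 2.33 (adjusted p = 0.00181). Thick ascending limb markers moved with this difference: their summed CPM was 2726 to 4428 in macula densa and 222.5 to 1494 in control cells. In bulk samples fewer cells of a type and less RNA per cell cannot be told apart.

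**Figure D1:**
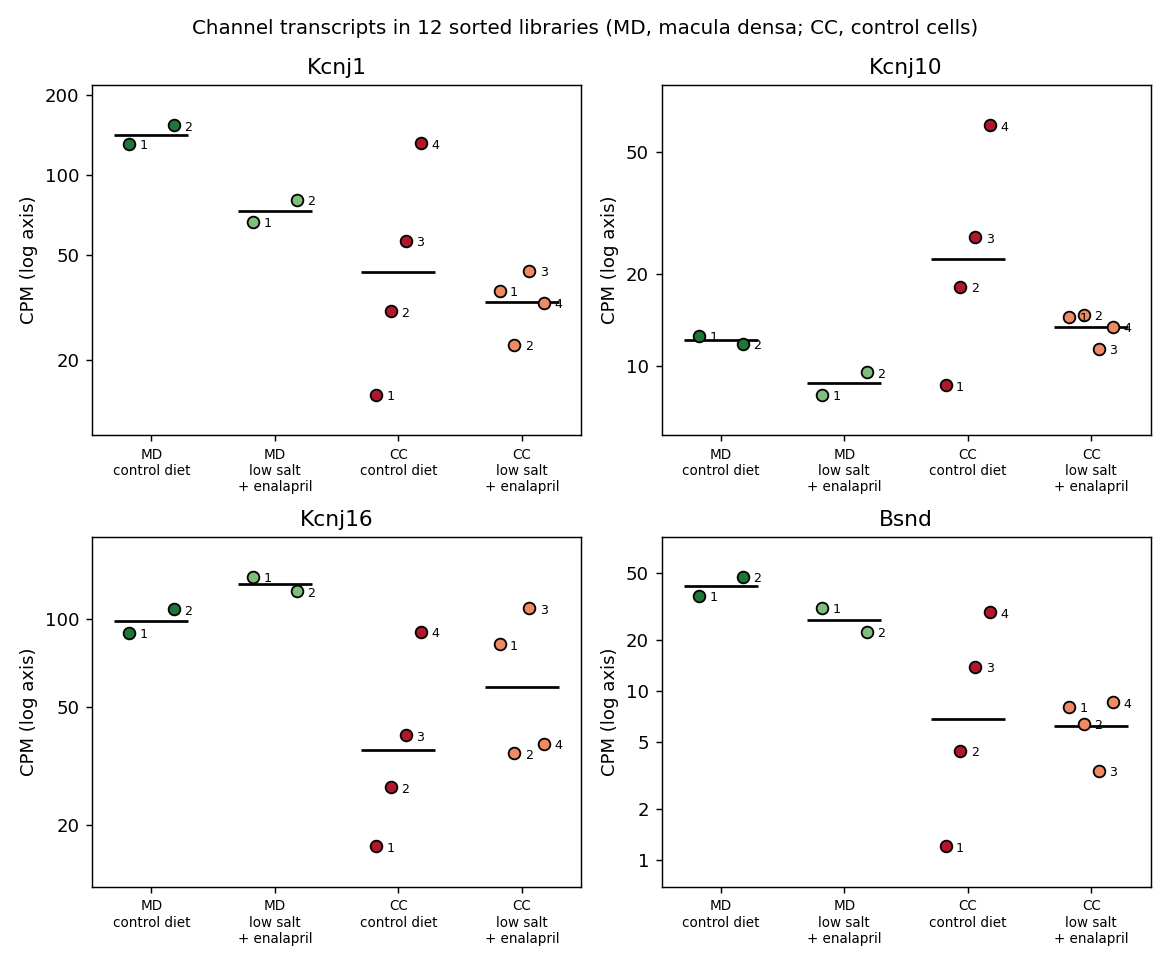
CPM of the 4 genes in each of the 12 libraries on log axes, with 1 panel per gene, groups along the horizontal axis, replicate numbers beside the points and horizontal bars at geometric means. Both macula densa groups of Bsnd lie above the control cells of the same diet, and control-cell library 4 on control diet is the highest of its group in every panel.

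ROMK came next in the size of its difference, but its call depended on control-cell library 4 and on the method. In macula densa, Kcnj1 measured 130.9 and 154.1 CPM on control diet and 66.5 and 80.4 CPM with low salt and enalapril. Control cells measured 14.8, 30.4, 56.5 and 131.9 CPM on control diet and 36.5, 22.8, 43.5 and 32.8 CPM with low salt and enalapril. On control diet 1 control-cell library, number 4, reached into the macula densa range, while with low salt and enalapril the populations did not overlap. The averaged log2 fold change was 1.20 ± 0.42 (SE), or 2.30-fold, and did not pass (edgeR adjusted p = 0.0590). Leaving library 4 out gave 1.59 (adjusted p = 0.00150), in a fit that called 3978 genes against 3027 with it. With library 4 kept, Kcnj1 passed in DESeq2 (adjusted p = 0.0325) and limma voom (adjusted p = 0.0100). It also passed in edgeR with library totals alone (adjusted p = 0.0227) or the title numbers as a block (adjusted p = 0.0229). Other scaling or filters in edgeR left it short of the threshold, with adjusted p up to 0.0716.

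Kir5.1, the subunit that makes the Kir4.1 channel sensitive to pH, was placed much like ROMK between the populations. Kcnj16 measured 89.6 and 107.6 CPM in macula densa on control diet and 138.1 and 123.5 CPM with low salt and enalapril. In control cells it measured 16.9, 26.9, 40.3 and 90.3 CPM on control diet and 81.8, 35.0, 108.4 and 37.6 CPM with low salt and enalapril. Control-cell library 4 on control diet again lay in the macula densa range, and no control-cell library did so with low salt and enalapril. The averaged log2 fold change of 1.09 ± 0.40 (SE), or 2.12-fold, did not pass (edgeR adjusted p = 0.0737). It was 1.40 (adjusted p = 0.00531) without control-cell library 4 on control diet, and 1.26 (adjusted p = 0.0433) without control-cell library 3 on low salt plus enalapril. DESeq2 and limma voom each called 3 members in the averaged comparison, Kcnj1, Kcnj16 and Bsnd. Over all alternatives other than single libraries left out, 1872 to 3900 genes were called in that comparison.

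Kir4.1, the pore subunit that pairs with Kir5.1, was the member with the lowest CPM in macula densa and the 1 member whose fitted difference was below 0. Kcnj10 measured 12.5 and 11.8 CPM in macula densa on control diet and 8.05 and 9.51 CPM with low salt and enalapril. Control cells measured 8.64, 18.1, 26.4 and 61.4 CPM on control diet and 14.4, 14.7, 11.3 and 13.4 CPM with low salt and enalapril. The populations overlapped on control diet through control-cell library 1, and did not overlap with low salt and enalapril. The averaged log2 fold change of -0.93 ± 0.40 (SE) did not pass (edgeR adjusted p = 0.121). It was -1.07 (adjusted p = 0.0311) without control-cell library 1 on control diet and -0.58 (adjusted p = 0.108) without library 4.

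Within a single diet no member passed the edgeR test. On control diet the log2 fold changes between macula densa and control cells were 1.29 for Kcnj1, -1.23 for Kcnj10, 1.18 for Kcnj16 and 1.78 for Bsnd, with adjusted p from 0.171 to 0.227, and 6.61% of all genes were called. At an unadjusted p under 0.05, Kcnj1, Kcnj10 and Bsnd passed there (3 of 4), against 24.2% of all genes. DESeq2 called 0 members and limma voom 3 on that diet. Bsnd alone of the 4 had groups that did not overlap on that diet, against 31.9% of all genes. Without control-cell library 4, Kcnj1 (2.07, adjusted p = 0.00663), Kcnj16 (1.81, adjusted p = 0.0180) and Bsnd (2.68, adjusted p = 0.0130) passed. Calls rose in general in that fit, to 2484 genes from 938 with the library. With low salt and enalapril the values were 1.11 for Kcnj1, -0.62 for Kcnj10, 0.99 for Kcnj16 and 1.99 for Bsnd, with adjusted p from 0.134 to 0.531, and 7.27% of genes were called. At an unadjusted p under 0.05, Bsnd passed (1 of 4), against 25.3% of all genes, and both DESeq2 and limma voom called 0 members. All 4 had groups that did not overlap on that diet, against 34.8% of all genes. There, too, Bsnd passed without control-cell library 4 on control diet (1.98, adjusted p = 0.0464), where 1891 genes were called against 1031 with it. That library is of the other diet, but all groups shared 1 estimate of the spread. The median over the 4 members was 1.14 in the averaged comparison and that over all tested genes was -0.06.

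**Figure D2:**
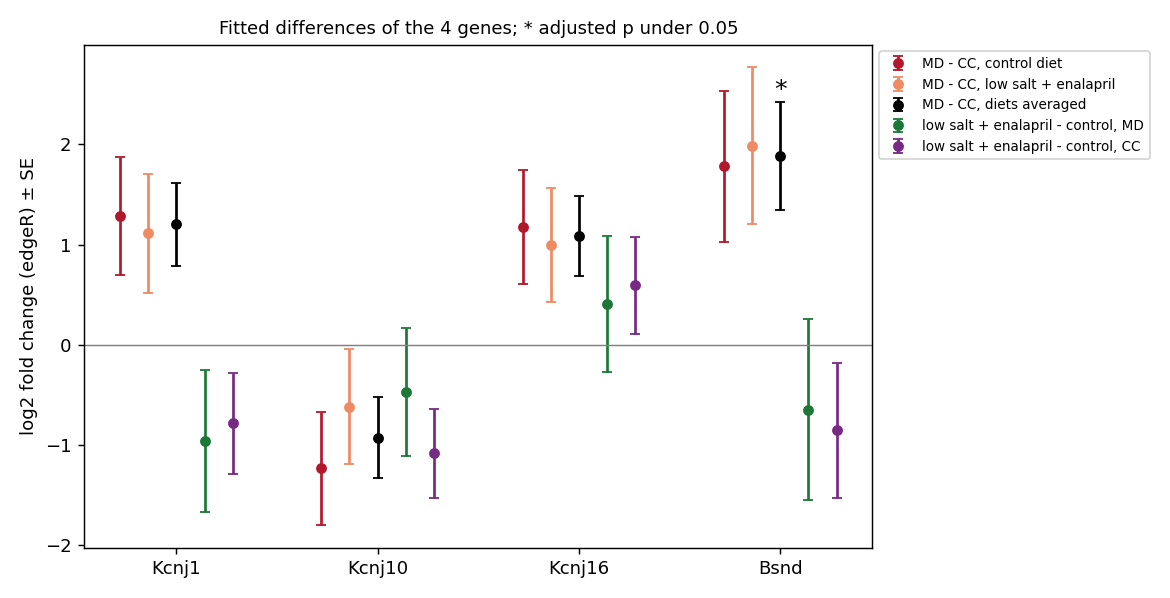
Fitted log2 fold changes of the 4 genes from edgeR in 5 comparisons, with bars of 1 standard error and an asterisk where the adjusted p was under 0.05. Bsnd in macula densa against control cells, averaged over diets, is the 1 value marked, and Kcnj10 lies below 0 in all comparisons shown.

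Comparing transcripts within a library removes the effect of how libraries are scaled, so ratios of counts were set against each other. Kcnj10 per Kcnj16 count was 0.140 and 0.110 in macula densa on control diet, and 0.0589 and 0.0776 with low salt and enalapril. In control cells it was 0.511, 0.675, 0.655 and 0.680 on control diet, and 0.177, 0.422, 0.106 and 0.358 with low salt and enalapril. Macula densa lay below the control cells of its diet in every library. The mean log2 ratio differed by -2.05, or 4.14-fold, in macula densa against control cells (exact two-sided permutation test within diets, p = 0.00444, the smallest that 225 arrangements allow, adjusted p = 0.00741 over 10 ratios).

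ROMK separated from Kir4.1 in the same way. Kcnj1 per Kcnj10 count was 10.4, 13.0, 8.18 and 8.38 in the macula densa libraries and 1.55 to 3.81 in the 8 control-cell libraries. The difference was 2.18 on the log2 scale, or 4.54-fold (exact permutation p = 0.00444, adjusted p = 0.00741). Barttin gave the widest gap among pairs of members: Kcnj10 per Bsnd count was 0.252 to 0.429 in macula densa and 1.57 to 6.91 in control cells. That ratio was 8.42-fold lower in macula densa (exact permutation p = 0.00444, adjusted p = 0.00741).

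The other pairs did not pass. Kcnj1 per Kcnj16 differed by 0.13 on the log2 scale (exact permutation p = 0.591, adjusted p = 0.591). Kcnj1 per Bsnd differed by -0.89 in macula densa (exact permutation p = 0.0400, adjusted p = 0.0571) and Kcnj16 per Bsnd by -1.02 (exact permutation p = 0.0844, adjusted p = 0.0938). All 3 ratios that involve Kcnj10 kept adjusted p = 0.0111 without control-cell library 4 on control diet, and the differences were then 2.21, -2.03 and -3.18. Markers of collecting duct principal cells, which also use the Kir4.1 channel, differed between the populations as well. The 10 principal cell markers summed to 56.7 to 86.4 CPM in macula densa and to 161.2 to 1105 CPM in control cells. Of these, 9 were called as lower in macula densa, where Fxyd4 was at 0 in both low salt plus enalapril libraries. In library order, the control-cell sums were 161.2, 393.9, 552.5 and 1105 CPM on control diet. With low salt and enalapril they were 454.7, 251.9, 236.5 and 340.1 CPM. On control diet, Kcnj10 CPM in control cells ran in the order of these sums. The Kcnj10 per Kcnj16 ratios given above did too, except that libraries 2 and 3 changed places (0.675 and 0.655). Among control cells given low salt with enalapril, library 3 was lowest in the sums, the ratios and Kcnj10 CPM, and the remaining order differed. The 10 distal convoluted and connecting tubule markers summed to 324.1 to 606.9 CPM in macula densa and 130.4 to 344.4 CPM in all control-cell libraries but library 4 on control diet (1124), with Pvalb at 0 in every low salt plus enalapril library. None of these 10 was called as lower in macula densa and 1, Klk1, was called as higher. Averaged over diets, 3 of the 10 were fitted above 0 and 7 below, with a median log2 fold change of -0.67. The part of either set in the ratios was not tested.

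**Figure D3:**
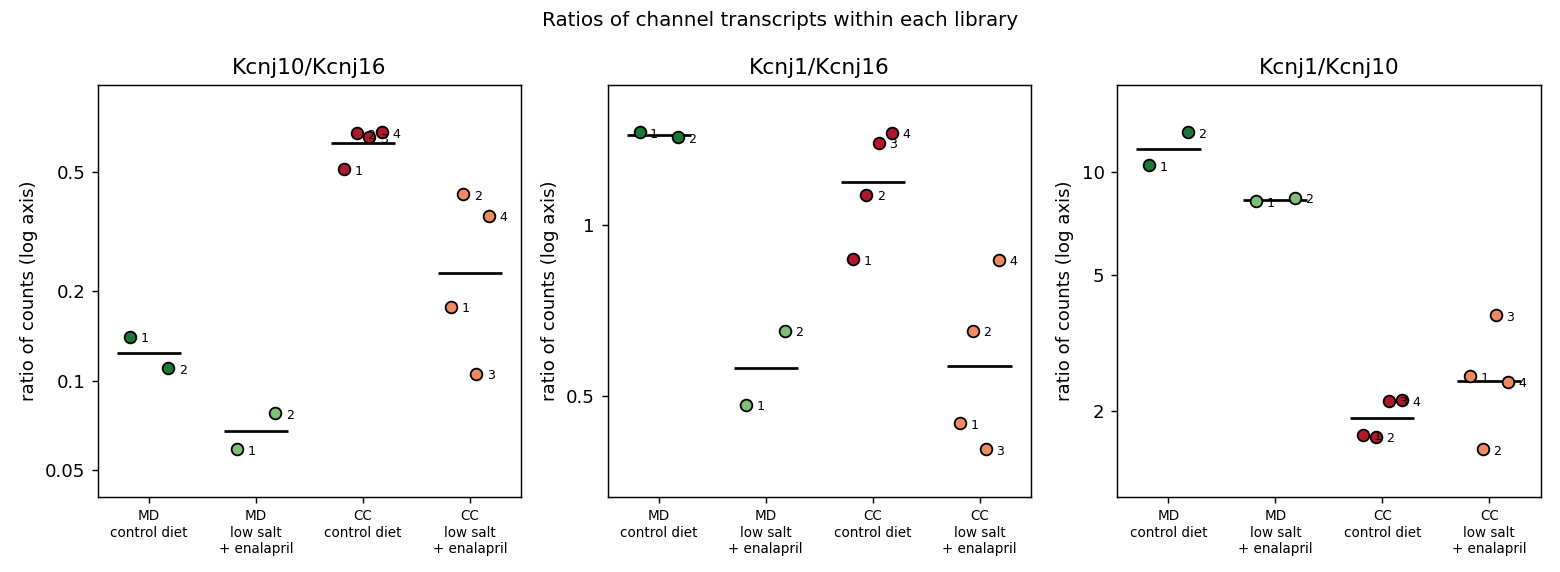
Ratios of counts within each library on log axes for Kcnj10 over Kcnj16, Kcnj1 over Kcnj16 and Kcnj1 over Kcnj10, with replicate numbers beside the points and bars at geometric means. Macula densa and control cells separate in the panels with Kcnj10, and the diets separate in the panel of Kcnj1 over Kcnj16 within each cell population.

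Divided by exon length, the levels of the 3 potassium channel genes can be set beside each other. The exon lengths were 3333 bases for Kcnj1, 5407 for Kcnj10, 3936 for Kcnj16 and 2756 for Bsnd. In CPM per kilobase on control diet, macula densa held 42.8 ± 4.93 of Kcnj1, 25.0 ± 3.24 of Kcnj16, 15.1 ± 2.72 of Bsnd and 2.25 ± 0.09 of Kcnj10 (SD, n = 2). With low salt and enalapril the order of the first pair turned, with 33.2 ± 2.62 of Kcnj16 and 22.0 ± 2.95 of Kcnj1, then 9.68 ± 2.24 of Bsnd and 1.62 ± 0.19 of Kcnj10 (SD, n = 2). Control cells on control diet held 17.5 ± 15.6 of Kcnj1, 11.1 ± 8.27 of Kcnj16, 5.29 ± 4.25 of Kcnj10 and 4.41 ± 4.55 of Bsnd (SD, n = 4), with spreads as large as most of the gaps. Without library 4 they held 10.2 ± 6.32 of Kcnj1, 7.12 ± 2.98 of Kcnj16, 3.28 ± 1.64 of Kcnj10 and 2.35 ± 2.38 of Bsnd (SD, n = 3). With low salt and enalapril they held 16.7 ± 9.05 of Kcnj16, 10.2 ± 2.59 of Kcnj1, 2.49 ± 0.28 of Kcnj10 and 2.39 ± 0.85 of Bsnd (SD, n = 4), and the last pair did not differ beyond its spread.

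As shares of the 3 potassium channels per length, Kcnj10 made up 2.63% to 3.60% in the 4 macula densa libraries. In control cells it made up 15.2% to 17.4% on control diet and 4.92% to 14.7% with low salt and enalapril. Kcnj1 made up 61.0% in both macula densa libraries on control diet, 35.3% and 42.1% with low salt and enalapril, 42.9% to 53.6% in control cells on control diet and 30.6% to 44.9% with low salt and enalapril. Kcnj16 took the rest, and rose from 35.4% and 36.1% to 62.1% and 54.8% in macula densa. Annotated exon length stands in for the transcripts in use, which the table does not resolve.

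**Figure D4:**
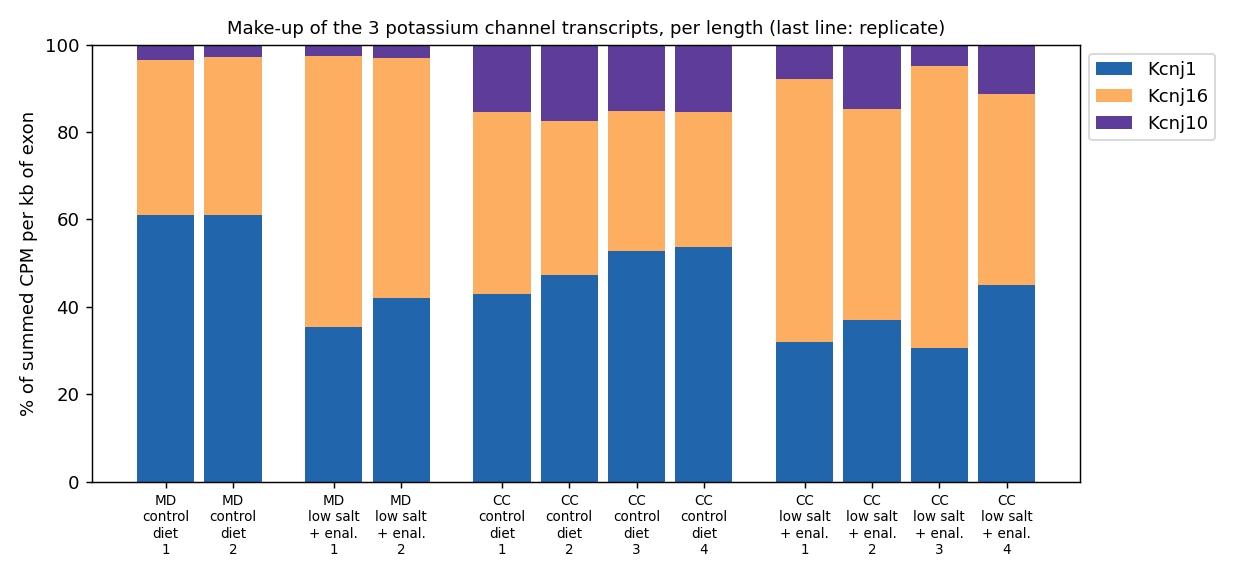
Stacked bars of the shares of Kcnj1, Kcnj16 and Kcnj10 in their summed CPM per kilobase of exon, with 1 bar per library. The Kcnj10 share is 2.63% to 3.60% in macula densa and 4.92% to 17.4% in control cells, and the Kcnj16 share is above 43% in all libraries of low salt plus enalapril and below it in all of control diet.

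Relative to Slc12a1, the transcript of the cotransporter these channels work beside, all 4 members had lower values in most macula densa libraries. Per 1000 Slc12a1 counts there were 74.0 and 76.1 Kcnj1 counts in macula densa on control diet and 35.5 and 40.0 with low salt and enalapril, against 253.1 to 512.7 and 101.2 to 228.9 in control cells. Kcnj10 had 4.29 to 7.07 in macula densa and 26.4 to 305.4 in control cells. These 2 genes separated the populations in every library of either diet.

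Kcnj16 had 50.6 to 73.7 counts per 1000 Slc12a1 counts in macula densa and 180.5 to 452.5 in control cells. Bsnd overlapped, with 11.1 to 23.2 in macula densa and 7.82 to 94.2 in control cells. The log2 ratio differed in macula densa by -2.14 for Kcnj1, -4.32 for Kcnj10 and -2.27 for Kcnj16, each with an exact permutation p of 0.00444 and an adjusted p of 0.00741. For Bsnd it differed by -1.25 (exact permutation p = 0.0533, adjusted p = 0.0667), and by -1.55 (adjusted p = 0.00952) without control-cell library 3 on low salt plus enalapril. Control cells also held markers of segments without Slc12a1, given above, and their part in these ratios was not tested.

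**Figure D5:**
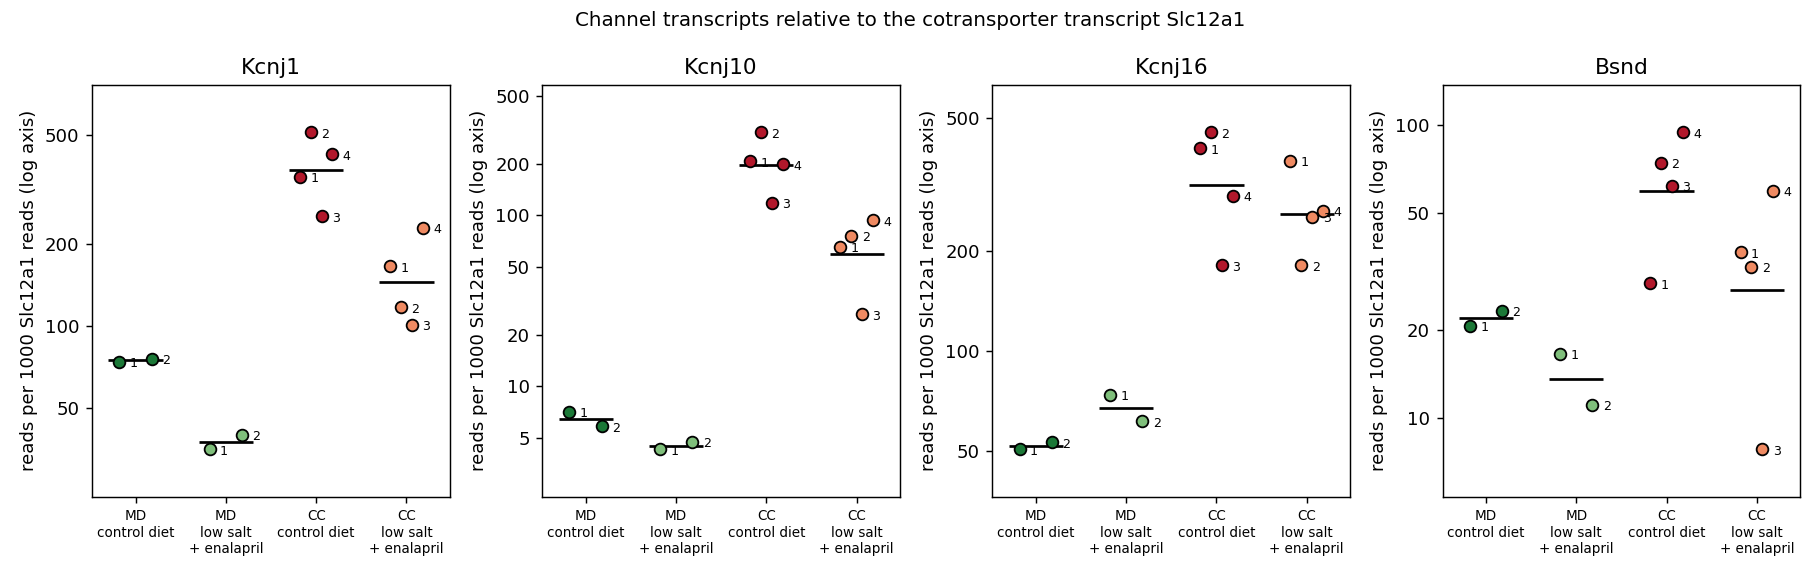
Counts of each gene per 1000 Slc12a1 counts in each library on log axes, with 1 panel per gene, replicate numbers beside the points and bars at geometric means. Macula densa lies below the control cells for Kcnj1, Kcnj10 and Kcnj16, and the populations overlap for Bsnd.

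Between diets, no member passed the edgeR test in either cell population. The SEs of these fold changes come from the fit of all 12 libraries. In macula densa the log2 fold changes with low salt and enalapril were -0.96 ± 0.71 for Kcnj1, -0.47 ± 0.64 for Kcnj10, 0.41 ± 0.68 for Kcnj16 and -0.65 ± 0.91 for Bsnd (SE, n = 2 per diet), with adjusted p from 0.643 to 0.859. In all 4 genes the libraries of the diets did not overlap, which with 2 libraries each held for 40.6% of genes, and 0% of genes were called. At an unadjusted p under 0.05, 11.2% of all genes passed there and 0 members did, and DESeq2 and limma voom each called 0 members. An edgeR fit of the 4 macula densa libraries alone called 192 genes, among them Kcnj1 (-0.96, adjusted p = 0.0160). Ren1, the renin gene that rises when angiotensin is blocked, was higher in control cells by 4.21 on the log2 scale (adjusted p = 0.00476), the 1 gene called there. Its call was lost in a fit of the control cells alone (adjusted p = 0.0763) and with the title numbers as a block (adjusted p = 0.100).

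In control cells the diet log2 fold changes were -0.78 ± 0.50 for Kcnj1, -1.08 ± 0.44 for Kcnj10, 0.59 ± 0.48 for Kcnj16 and -0.85 ± 0.67 for Bsnd (SE, n = 4 per diet), with adjusted p from 0.727 to 0.963 where 0.00705% of genes were called. At an unadjusted p under 0.05, Kcnj10 passed (1 of 4), against 6.45% of all genes, and DESeq2 and limma voom each called 0 members. All 4 overlapped between diets, as most genes did, since 4.2% of genes were without overlap. These values rested on control-cell library 4 on control diet: without it they were 0.00 for Kcnj1, -0.39 for Kcnj10, 1.23 for Kcnj16 and 0.05 for Bsnd. The diet effect in macula densa less that in control cells was -0.17 ± 0.86 for Kcnj1, 0.62 ± 0.78 for Kcnj10, -0.18 ± 0.83 for Kcnj16 and 0.21 ± 1.12 for Bsnd (SE). None of these passed in edgeR, with adjusted p from 0.899 to 0.982 and 0% of genes called. They too rested on control-cell library 4 on control diet: leaving it out gave -0.96 for Kcnj1, -0.072 for Kcnj10, -0.82 for Kcnj16 and -0.70 for Bsnd, so that Kcnj10 and Bsnd changed sign (adjusted p from 0.649 to 0.980). At an unadjusted p under 0.05, 0 members passed against 7.03% of all genes, and DESeq2 and limma voom each called 0 members.

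The ratios within libraries did separate the diets, in a test added after the values were seen. Kcnj1 per Kcnj16 count was 1.46 and 1.43 in macula densa on control diet and 0.482 and 0.651 with low salt and enalapril. In control cells it was 0.871, 1.13, 1.40 and 1.46 on control diet and 0.447, 0.652, 0.402 and 0.870 with low salt and enalapril. No library of 1 diet reached the range of the other, although a control-cell pair nearly touched at 0.871 and 0.870. The mean log2 ratio fell by 1.22, or 2.34-fold (exact two-sided permutation test within cell populations, p = 0.00476, the smallest of 420 arrangements, adjusted p = 0.0119 over 10 ratios). The test shuffled each population separately, although 4 numbers in the sample descriptions are each shared by a macula densa and a control-cell library. A version that keeps such libraries together was not run. If these numbers mark animals, the p-values of all ratios between diets are too small. Some marker sums also differed between diets in macula densa. The thick ascending limb sum was 3570 and 4428 CPM on control diet and 2726 and 2796 CPM with low salt and enalapril, and that of 10 intercalated cell markers was 52.5 and 70.1 CPM against 96.9 and 117.8 CPM. In control cells both sums overlapped between diets, at 222.5 to 1494 against 338.5 to 1016 CPM and at 34.6 to 539.7 against 85.4 to 210.4 CPM. Fitted singly in macula densa, 7 of the 12 thick ascending limb markers were above 0 with low salt and enalapril and 5 below. Their median log2 fold change was 0.05. Of the intercalated cell markers 7 were above 0 and 3 below (median 0.58). Below 0 were all 10 endothelial, 9 of 10 podocyte and 11 of 12 proximal tubule markers. None of these markers was called, and their part in the ratios was not tested.

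Kcnj10 per Kcnj16 fell by 1.16 on the log2 scale, or 2.23-fold, with the same p and adjusted p in the exact permutation test, and its diets did not overlap in either population. The ratio of Kcnj1 to Kcnj10 differed by -0.06 (exact permutation p = 0.824, adjusted p = 0.824). Against Slc12a1, Kcnj1 fell by 1.18 and Kcnj10 by 1.11 (each exact permutation p = 0.00476, adjusted p = 0.0119), and Kcnj16 differed by 0.05 (exact permutation p = 0.824, adjusted p = 0.824).

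Barttin was less clear in this test. Bsnd per Slc12a1 differed by -0.90 with low salt and enalapril (exact permutation p = 0.0381, adjusted p = 0.0762), and passed without control-cell library 1 on control diet (adjusted p = 0.0190) or library 4 on low salt plus enalapril (adjusted p = 0.0381). Kcnj16 per Bsnd was higher by 0.95 (exact permutation p = 0.0619, adjusted p = 0.103), and passed without control-cell library 1 on control diet (1.18, adjusted p = 0.0476). Without control-cell library 4 on control diet, the falls of Kcnj1 and Kcnj10 per Kcnj16 were 1.17 (adjusted p = 0.0317) and 1.14 (adjusted p = 0.0357), and those per Slc12a1 were 1.14 and 1.11 (adjusted p = 0.0317).

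Ordered by mean CPM, Kcnj1 ran from macula densa on control diet (142.5 ± 16.4, SD, n = 2) to macula densa on low salt plus enalapril (73.4 ± 9.83, SD, n = 2), then the control-diet control cells (58.4 ± 51.9, SD, n = 4) and those given low salt with enalapril (33.9 ± 8.63, SD, n = 4). Bsnd had the same order, at 41.7 ± 7.48, 26.7 ± 6.17, 12.1 ± 12.5 and 6.58 ± 2.34 CPM. The last step of both rested on control-cell library 4: without it the control-diet means were 33.9 ± 21.1 CPM for Kcnj1 and 6.48 ± 6.55 CPM for Bsnd (SD, n = 3), level with or below those given low salt with enalapril. Kcnj16 ran from macula densa on low salt plus enalapril (130.8 ± 10.3) through macula densa on control diet (98.6 ± 12.8) and control cells on low salt plus enalapril (65.7 ± 35.6) to those on control diet (43.6 ± 32.6). The order of Kcnj10 began with control cells, at 28.6 ± 23.0 for control diet and 13.5 ± 1.53 for low salt with enalapril, followed by macula densa at 12.2 ± 0.50 and 8.78 ± 1.04 CPM. Without library 4 the control-diet control cells held 28.0 ± 11.7 CPM of Kcnj16 and 17.7 ± 8.88 CPM of Kcnj10 (SD, n = 3), and the order of these 2 genes was as before. In each order the 2 macula densa groups did not overlap. The second step, between macula densa and control cells of opposite diets, overlapped in all 4, and so did the control-cell groups.

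Other genes of the same families and pathways were read from the averaged comparison of macula densa with control cells, in which 21.3% of all genes were called and 7.48% as higher. Of 12 other inward rectifier genes, 4 were tested and 1 passed, lower in macula densa: Kcnj5, a subunit of G protein gated channels, at 0 to 0.820 CPM in macula densa and no more than 12.03 CPM in control cells (log2 fold change -3.74, edgeR adjusted p = 0.0291). The median of the 4 was -1.12. Of 8 other CLC genes and Ostm1, 7 were tested and 2 passed, both higher. They were Clcn2, a plasma membrane chloride channel (0.99, adjusted p = 0.0330), and Clcn3, an endosomal chloride exchanger (0.58, adjusted p = 0.0495), with a median of 0.50 over the 7. Clcn2 lost its call without any of 8 single libraries and Clcn3 without any of 10, with adjusted p up to 0.194 and 0.146. Kcnj5 lost it without any of 5, with adjusted p up to 0.113. The counts of 1 in 4 and 2 in 7 lie near the share over all genes. Kcnj5 also did not pass in limma voom (adjusted p = 0.332) or with the title numbers as a block (adjusted p = 0.0798). Clcn2 and Clcn3 did not pass with that block (adjusted p = 0.149 and 0.0620) or without the filter on low counts (adjusted p = 0.0717 and 0.0982).

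Of 17 other potassium channel genes of tubule cells, 6 were tested and 3 passed, all lower, where 21.3% of all genes were called. Kcne1 and Kcnq1, which encode the accessory and pore subunits of 1 channel, had log2 fold changes of -3.03 (edgeR adjusted p = 0.00749) and -1.86 (adjusted p = 0.0123). Kcnk6, a two-pore domain channel gene, was at no more than 3 counts in every macula densa library and at least 6.53-fold lower than in control cells, taking 3 counts per library as its upper limit. Control cells held 0 to 5.58 CPM of it, with 1 control-diet library at 0, so that the populations overlapped on that diet. The median of the 6 was -0.73. Kcnq1 lost its call without macula densa library 2 of either diet (adjusted p = 0.0637 and 0.0742), and Kcnk6 without either of these or library 1 on low salt plus enalapril (adjusted p from 0.0520 to 0.0927). In limma voom Kcne1 and Kcnk6 did not pass (adjusted p = 0.0554 and 0.221), and with the title numbers as a block Kcnq1 and Kcnk6 did not (adjusted p = 0.0617 and 0.0553), which left 1 of the 6 in each.

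Among 18 regulators of ROMK and of the Kir4.1 channel, 17 were tested, 3 were higher and 3 lower, with a median of 0.02. Of all genes, 21.3% were called in that averaged comparison and 7.48% as higher. Limma voom and scaling by library totals each called 5 as higher. Casr, the calcium-sensing receptor that lowers ROMK activity in the thick ascending limb, measured 147.3 to 182.7 CPM in macula densa and 6.12 to 59.0 CPM in control cells (log2 fold change 2.73, edgeR adjusted p = 0.00144). Klhl3, the adaptor that marks WNK kinases for degradation, and Wnk1 itself were higher by 2.34 (adjusted p = 0.000416) and 1.59 (adjusted p = 0.000515). Both kept groups that did not overlap on either diet.

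The 3 lower regulators were Sgk1, the aldosterone-induced kinase (-4.17, edgeR adjusted p = 0.00336), Slc9a3r2, a scaffold that binds ROMK (-3.77, adjusted p = 0.00280), and Cav1, the caveolae protein (-2.64, adjusted p = 0.00855). Sgk1 measured 0 to 9.64 CPM in macula densa and 6.30 to 74.8 CPM in control cells. Cav1 is also abundant in endothelium and Slc9a3r2 in glomerular cells, whose markers were higher in control cells, as given above, and their part was not tested. In the diet comparisons none of the genes in these 4 lists passed.

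Among 6688 genes with a mean of at least 5 CPM, those whose log2 CPM ran most like each member over the 12 libraries were listed by Pearson's r. Nearest to Kcnj1 were Kif12, a kinesin (r = 0.976), Rragd, a GTPase of nutrient signalling, Mdh2, the mitochondrial malate dehydrogenase, BC034090 and Pclo. Car2, a carbonic anhydrase (r = 0.970), Bmpr1b, Aes, Aif1l and Pigq ran most like Kcnj10. For Kcnj16 these were Rbm47 (r = 0.982), Mgst1, Itgb6, Atp1b1, the beta subunit of the sodium pump, and Dsg2, and for Bsnd Mthfd1 (r = 0.967), Sox6, Gm13111, Maged1 and Slc7a8.

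Among the members, Kcnj1 and Bsnd ran most alike (r = 0.915), with Kcnj1 at rank 17 of the genes nearest to Bsnd. Kcnj1 with Kcnj16 gave r = 0.768 and Bsnd with Kcnj16 gave 0.724. Kcnj10 gave 0.288 with Kcnj1, 0.200 with Bsnd and -0.06 with Kcnj16, its partner subunit. The 12 points share libraries, depth and the cell make-up of each sort, so these values describe the libraries.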

How the data were processed

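RNA sequencing counts of the 12 libraries came from 1 table of estimated counts per gene that the authors deposited, in which 14.8% of values were not whole. Per the submitters' processing notes, STAR 2.61, Partek and the genome build mm10 were used, named without their roles. The counting method and its use of strand are not given in the sources used here. Table coordinates equalled GENCODE M21 for 23351 genes once 1 was taken from the stop coordinate, with the start unchanged. The members and gene lists were chosen with earlier results of these data known.

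Estimated counts were rounded. edgeR 4.0.16 in R 4.3.3 kept genes with filterByExpr (count minimum 10, total minimum 15), scaled libraries by trimmed means of M values and fitted 1 quasi-likelihood model with a coefficient per group to all 12 libraries, with Benjamini-Hochberg adjustment over all 14180 genes and a threshold of 0.05. The fit was tested on simulated counts. Ratios are log2 of counts plus 0.5. Named were the members, the marker genes above, up to 3 genes per direction, list and comparison with the largest changes past the threshold, and the 5 genes nearest each member. A gene at 3 counts or fewer in every library of a group was treated as at the floor. The floor covers counting error only, while SDs are over the libraries of a group. Each SE is the absolute log2 fold change over the square root of the quasi-likelihood F. It comes from the fit of all 12 libraries, with a spread shared between groups and moderated over genes. No column lacked a sample (0 columns). The ClC-K genes themselves, near-identical neighbours, are not reported here. Alternatives used DESeq2 1.42.0 and limma 3.58.1.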

Additional observations from a re-analysis of the deposited data

Results flagged for a closer look

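Each member and each ratio was checked within the 4 control-cell libraries of either diet for a library set apart. Of these 28 checks 1 found such a library, where chance gives about 1.4. The log2 ratio of Kcnj10 to Kcnj16 in control-cell library 1 on control diet was -0.968, while the other 3 libraries of that group lay between -0.610 and -0.557. All 4 remained above the low salt plus enalapril libraries of the control cells.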

How the results depend on the processing

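The member folds and the 10 ratios between cell populations were recomputed under the alternatives that applied to them. Besides single libraries left out, the ratios between diets had 1 alternative. It did not use the numbers in the sample descriptions. Outside the sets with a library left out, 311 values and counts of the comparisons were rated unchanged, the values in direction and side of the threshold. Of the others, 35 counts of calls moved and 9 values changed sign. A further 33 values passed only under the alternative and 12 only in the main fit. Those that changed are given here. The labels do not say whether the 4 numbers shared in the sample descriptions mark animals. The deviations of same-numbered libraries correlated at -0.037, 0.227, -0.018 and 0.075, and those of the titles at -0.355 to 0.278, so the libraries were treated as unpaired. That does not show that they came from separate animals. With the description numbers as a replicate block in their 8 libraries, Kcnj1, Kcnj10, Kcnj16 and Bsnd were 1.78, -0.85, 1.58 and 2.35 on control diet (4 members and 2243 genes called). With low salt and enalapril under this block, Kcnj1, Kcnj16 and Bsnd were 1.43, 1.86 and 1.79 (3 members and 2233 genes called), and averaged over diets Kcnj1, Kcnj10 and Kcnj16 were 1.60, -0.75 and 1.72 (4 members called). The block gave differences between diet effects of 0.28 for Kcnj16 and -0.56 for Bsnd, with 2 genes called. The same 8 libraries without the block gave 1.71, -0.87, 1.56 and 2.19 on control diet (4 members, 2324 genes), 1.40, 1.86 and 1.82 for Kcnj1, Kcnj16 and Bsnd with low salt and enalapril (3 members, 2274 genes), and 1.56, -0.76 and 1.71 for Kcnj1, Kcnj10 and Kcnj16 averaged (4 members), with differences between diet effects of 0.30 for Kcnj16 and -0.38 for Bsnd. This set was chosen after seeing the data. A replicate block of the title numbers gave Kcnj1 1.93 averaged (2 members and 1908 genes called), 378 genes on control diet, 396 with low salt and enalapril, 0 between diets in control cells, and -0.34 for the difference between diet effects of Bsnd.

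In the 8 libraries, with and without pairing by number, the ratios between cell populations were 2.36 for Kcnj1 to Kcnj10, -0.11 for Kcnj1 to Kcnj16, -2.47 for Kcnj10 to Kcnj16, -2.87 for Kcnj10 to Bsnd, and -2.19, -4.55 and -2.08 for Kcnj1, Kcnj10 and Kcnj16 to Slc12a1. There the smallest exact permutation p is 0.0556, or 0.125 for sign flips in pairs, so neither can pass. The DESeq2 Wald test called 3 members averaged, with Kcnj1 at 1.20 and Kcnj16 at 1.08, and 2000 genes on control diet, 1922 with low salt and enalapril, 93 and 74 between diets in macula densa and control cells, and 13 for the difference. Limma voom with sample weights called 3 members on control diet (Kcnj1 1.95, Kcnj16 1.67, Bsnd 2.75; 1919 genes) and 3 averaged (Kcnj1 1.60, Kcnj16 1.55), 516 genes with low salt and enalapril and 4 between diets in macula densa. Its diet effect of Bsnd in control cells was 0.20 and the difference -0.88. Scaling by library totals alone called 3 members averaged (Kcnj1 1.42, Kcnj16 1.33). Averaged over diets, the alternatives other than single libraries left out called 1872 to 3900 genes, against 3027 in the main fit. Only genes with a mean of 5 CPM or more gave 608 and 1872 calls on control diet and averaged. Fits of only the groups compared gave 464 genes on control diet, 2 members with low salt and enalapril (Kcnj1 1.09, Bsnd 1.97), 0 genes between diets in control cells, and 192 genes and 1 member (Kcnj1 -0.96, adjusted p = 0.0160) between diets in macula densa. The cause of these moves was not tested.

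Leaving out each library in turn gave 121 to 2484 genes and 0 to 3 members called on control diet, 206 to 1891 genes and 0 to 1 members with low salt and enalapril, 1674 to 3978 genes and 0 to 3 members averaged, 0 to 1 genes between diets in macula densa and 1 to 5 in control cells. The lone library of a group was then assumed to vary like the others. Log2 fold changes were 0.99 to 2.07 for Kcnj1, 0.93 to 1.81 for Kcnj16 and 1.42 to 2.68 for Bsnd on control diet, and 1.71 to 2.20 for Bsnd with low salt and enalapril. Averaged, they were 1.04 to 1.59 for Kcnj1, -1.07 to -0.58 for Kcnj10, 0.95 to 1.40 for Kcnj16 and 1.70 to 2.33 for Bsnd. Between diets in control cells they were -1.09 to 0.00023 for Kcnj1 and -1.23 to 0.051 for Bsnd, and the differences between diet effects were -0.96 to 0.10 for Kcnj1, -0.072 to 0.88 for Kcnj10, -0.82 to 0.16 for Kcnj16 and -0.70 to 0.55 for Bsnd. Ratios between cell populations were -1.55 to -1.06 for Bsnd to Slc12a1 and -1.08 to -0.68 for Kcnj1 to Bsnd. Ratios between diets were -1.09 to -0.60 for Bsnd to Slc12a1, -0.17 to 0.048 for Kcnj1 to Kcnj10, 0.66 to 1.18 for Kcnj16 to Bsnd and -0.085 to 0.14 for Kcnj16 to Slc12a1. With 11 to 105 counts in 6 of 8 control-cell libraries, Bsnd is the member that depth limits most.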
